A study of Mus musculus with 6 samples.

Results

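Ifitm1, Ifitm2, Ifitm3 and Ifitm6 (listed as IFITM1, IFITM2, IFITM3 and IFITM6) are 4 genes of the interferon-induced transmembrane protein family that lie together on mouse chromosome 7. They were followed, among the 18011 genes listed in any sample, in single-cell RNA profiles of lineage-negative (Lin-) haematopoietic stem and progenitor cells, the marrow fraction left once mature lineage cells are removed. The cells came from 3 mice labelled Stag2 KO (KO1, KO2 and KO3) and 3 mice labelled Stag2 wt (WT1, WT2 and WT3); age, sex and how the allele was deleted are not stated in the sources used here. Ifitm1 was chosen because its level differed between these genotypes over all cells, so its genotype values are given as a description with no test. Ifitm2, Ifitm3 and Ifitm6 were added for their family and place, and were tested to ask whether the lower Ifitm1 in the knockout extends to the genes beside it.

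The IFITM proteins are small proteins of the plasma membrane and the endosomes that hinder the entry of enveloped viruses into the cell. Type I and type II interferons raise their transcription in many tissues, and stem and progenitor cells are known to hold a high level of some members without added interferon. The product of Stag2 belongs to cohesin, a ring complex that extrudes chromatin loops and so sets which enhancers reach which promoters within a gene cluster. Ifitm1, Ifitm2 and Ifitm3 are broadly expressed members, whereas Ifitm6 is a mouse gene known mainly from myeloid cells.

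On GRCm38 (GENCODE release M21) Ifitm2 spans chr7:140954837-140955987 on the minus strand and Ifitm1 spans chr7:140967221-140969825 on the plus strand. Ifitm3 spans chr7:141009586-141010770 and Ifitm6 spans chr7:141015699-141017924, both on the minus strand. The 4 genes thus lie within 63.09 kb, with 11.23 kb between Ifitm2 and Ifitm1, 39.76 kb between Ifitm1 and Ifitm3, and 4.93 kb between Ifitm3 and Ifitm6. Ifitm5 lies next to Ifitm2, and Ifitm7, another family member, is on chromosome 16. The predicted gene Gm45717 overlaps Ifitm2 and Ifitm5 on the same strand, so reads of Ifitm2 could be shared with it, depending on the annotation behind the counts. The longest annotated transcripts of the 4 members were 53.5% to 67.7% identical over their last 300 bases, the part that 3' counting reads, and shared no run longer than 26 bases there. Over their whole length the longest shared runs were 69 bases for Ifitm2 with Ifitm3, 64 for Ifitm1 with Ifitm3 and 40 for Ifitm1 with Ifitm2. Other annotated transcripts were not compared.

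The promoters of Ifitm1, Ifitm2 and Ifitm3 are shown because interferon acts on genes of this family through a short element in them. Each runs 5' to 3' on the gene's own strand, from 250 bases before to 50 bases after the RefSeq start (GRCm38.p6), at chr7:140967826-140968125 (plus strand) for Ifitm1, chr7:140955912-140956211 (minus strand) for Ifitm2 and chr7:141010695-141010994 (minus strand) for Ifitm3. Capitals mark matches to GAAA, any 2 bases, then GAAA, the core letters of the interferon-stimulated response element (ISRE).
Ifitm1: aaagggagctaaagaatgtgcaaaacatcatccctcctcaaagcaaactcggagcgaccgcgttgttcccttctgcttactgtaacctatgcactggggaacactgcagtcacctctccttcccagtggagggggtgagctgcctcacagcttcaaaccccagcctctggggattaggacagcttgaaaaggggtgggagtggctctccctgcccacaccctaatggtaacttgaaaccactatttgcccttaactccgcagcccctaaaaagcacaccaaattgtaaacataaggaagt
Ifitm2: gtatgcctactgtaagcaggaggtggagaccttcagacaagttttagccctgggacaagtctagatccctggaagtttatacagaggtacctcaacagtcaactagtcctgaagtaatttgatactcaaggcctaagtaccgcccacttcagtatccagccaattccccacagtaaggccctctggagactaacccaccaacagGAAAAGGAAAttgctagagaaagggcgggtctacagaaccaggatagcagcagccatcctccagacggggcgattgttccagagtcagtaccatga
Ifitm3: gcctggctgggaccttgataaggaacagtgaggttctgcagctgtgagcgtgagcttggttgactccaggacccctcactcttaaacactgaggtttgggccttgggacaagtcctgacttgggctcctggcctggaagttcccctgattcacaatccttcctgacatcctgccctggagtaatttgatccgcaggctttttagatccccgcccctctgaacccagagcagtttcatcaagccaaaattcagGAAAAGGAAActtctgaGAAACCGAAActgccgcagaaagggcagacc
The ISRE letters, searched on both strands, matched once in the Ifitm2 window and at 2 places in the Ifitm3 window. These letters were not in the Ifitm1 window or in that of Ifitm6 (chr7:141016843-141017142, minus strand). The RefSeq starts of Ifitm1 and Ifitm6 lie inside the GENCODE spans of these genes, so both windows lie there too, and the bases before the GENCODE starts of these 2 genes were not searched. Of 32851 promoter windows of the same length, 3.44% held such a match. The letters CC, any 3 bases, AG, any 2 bases, then GGC, from the core of the CTCF motif, were in none of the 4 windows and in 8.61% of all windows.

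After filtering, 4315, 2385 and 3639 cells of KO1, KO2 and KO3 and 2412, 4258 and 6407 cells of WT1, WT2 and WT3 were kept, with medians of 5949, 5752 and 5980 unique molecular identifiers (UMIs, counted molecules) per knockout cell and 4287.5, 4896 and 3503 per wild type cell. Any pair of samples shared 11 to 48 cell barcodes. Over all kept cells the labels held for the targeted gene, although Stag2 UMIs remained in the knockouts. Stag2 measured 25.1, 23.7 and 19.99 CPM (UMIs of the gene per 1000000 summed UMIs) in the knockouts, against 53.2, 43.1 and 42.8 CPM in wild type (log2 fold change -1.05 ± 0.12 SE, edgeR adjusted p = 5.62e-04). Cells were grouped by markers into classes without using the Ifitm genes, and 9 classes had at least 20 cells in every sample. HSC/MPP, for example, holds stem cells and multipotent progenitors. In the class of lymphoid progenitors the genotypes overlapped in Stag2, at 40.4, 37.7 and 32.5 CPM in the knockouts, against 57.6, 39.6 and 50.2 CPM in wild type. Between 7 of 11 and 14 of 14 of a class's markers stood at least 2-fold above the other classes compared. The clusters were named by the same markers, so this is no separate check of the names. Class makeup differed between genotypes, with granulocyte progenitors at 9.69% to 13.4% of knockout cells and 2.78% to 7.34% of wild type cells. Basophil/mast cells were 22.7% to 27.9% of knockout cells and 23.9% to 27.5% of wild type cells. In sums over cells, fewer cells of a type and less RNA per cell cannot be told apart.

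Over all kept cells Ifitm1 measured 115, 99.3 and 137 CPM in the 3 knockouts (KO1 to KO3), against 860, 799 and 801 CPM in the 3 wild types (WT1 to WT3). Every knockout sample lay far below every wild type sample, and the means differed 7.005-fold (log2 fold change -2.84). Ifitm3, which blocks entry of enveloped viruses at the endosome, measured 250, 261 and 264 CPM in the knockouts, against 354, 450 and 377 CPM in wild type. The groups did not overlap, and Ifitm3 fell in the knockout (log2 fold change -0.64 ± 0.09 SE, edgeR adjusted p = 0.00165). Of 12641 genes tested over all cells, 7.21% were called lower in the knockout and 13.1% lay lower without overlap.

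Ifitm2, a close relative of Ifitm3, measured 700, 658 and 711 CPM in the knockouts, against 684, 773 and 803 CPM in wild type. WT1 lay among the knockout samples, and Ifitm2 did not pass the test over all cells (log2 fold change -0.16 ± 0.08 SE, edgeR adjusted p = 0.256). With every sample reweighted to the same class shares, it did (-0.25, adjusted p = 0.0301). Ifitm6 measured 22.7, 42.1 and 16.7 CPM in the knockouts, against 35.4, 32.3 and 30.2 CPM in wild type. KO2 was above and the other knockouts below all wild type samples (-0.31 ± 0.27 SE, adjusted p = 0.537). Without KO2 the call was made (-0.77, adjusted p = 0.00395), and with equal class shares the sign turned (0.18, adjusted p = 0.495). Of the counts of all 4 genes together, Ifitm1 made up 9.37% to 12.1% in the knockout samples and 38.9% to 44.5% in wild type. Their summed level was 1060 to 1129 CPM in the knockout samples, against 1933 to 2054 CPM in wild type.

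**Figure D1:**
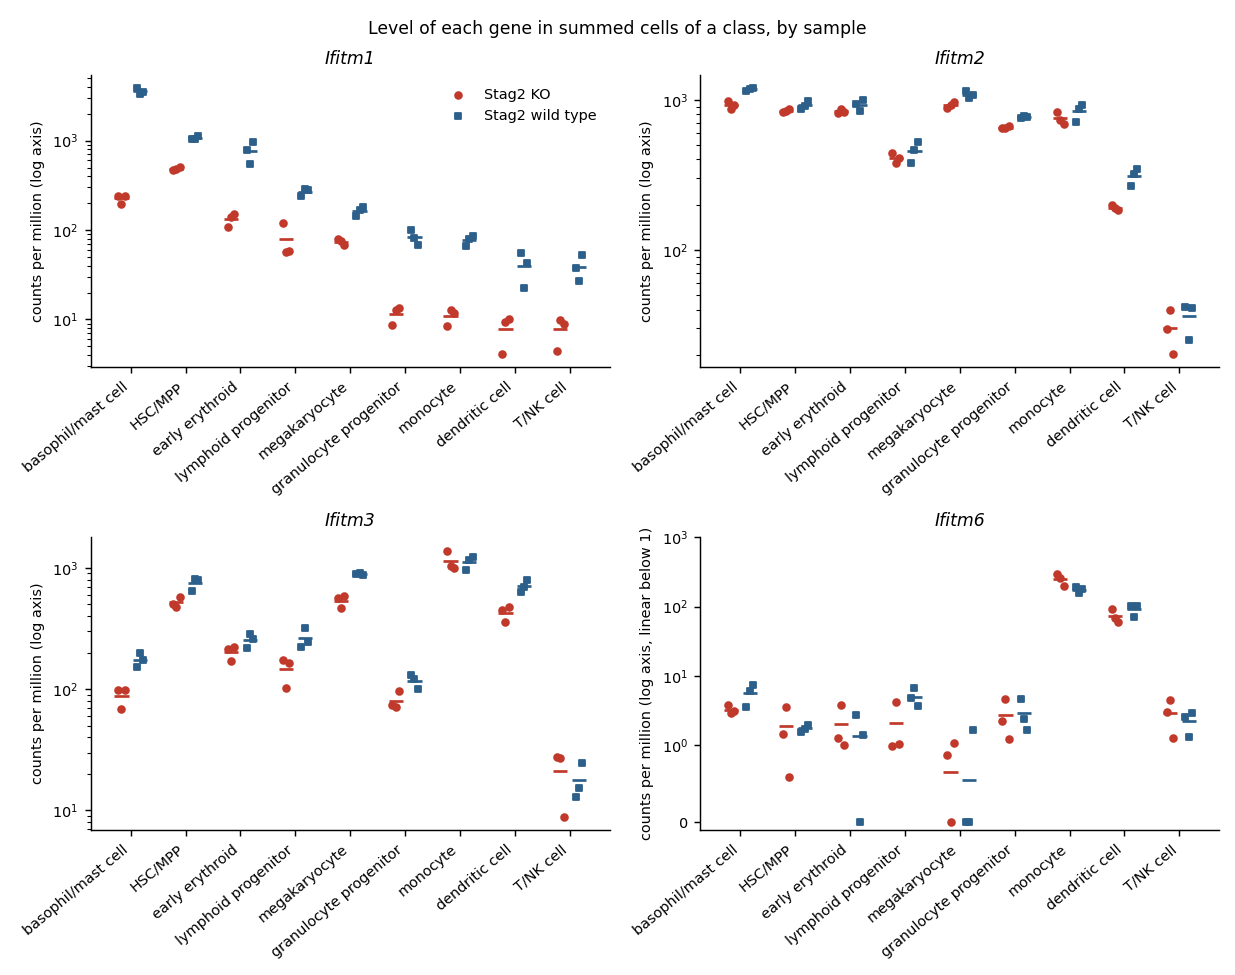
Level of Ifitm1, Ifitm2, Ifitm3 and Ifitm6 (CPM of summed cells, log axes) in each of 9 cell classes; each point is 1 sample, the short bar is the mean of 3 samples, knockout in red circles left of wild type in blue squares. Ifitm1 lay lower in all knockout samples in each class, Ifitm2 and Ifitm3 differed less, and Ifitm6 stood above 10 CPM in monocytes and dendritic cells.

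In wild type, Ifitm1 was highest in basophil/mast cells (3302 to 3894 CPM), then in HSC/MPP (1030 to 1123 CPM), early erythroid cells (555 to 969 CPM), lymphoid progenitors (238 to 288 CPM) and megakaryocytes (143 to 179 CPM). The sample ranges of these neighbours did not overlap. Granulocyte progenitors (68.1 to 101 CPM) and monocytes (65.6 to 85.9 CPM) overlapped, as did dendritic cells (22.7 to 54.9 CPM) and T/NK cells (26.9 to 52.6 CPM). In the knockout samples the order changed at the top, with HSC/MPP at 464 to 502 CPM above basophil/mast cells at 195 to 243 CPM.

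Across the wild type class sums (27 sums, 9 classes in 3 mice that share libraries), the 5 genes most like Ifitm1 in log2(CPM + 1) were Ier3, Flot1, Plgrkt, Cpa3 and Ptpre (Pearson r from 0.909 to 0.881, of 7093 genes compared). Cpa3 is the carboxypeptidase of mast cell and basophil granules. Ifitm2 was most like Hacd1, Aldh2, Tmem205, Btk and Nfe2 (r from 0.974 to 0.909), and Ifitm3 most like Ctnnbip1, Cyfip1, Spag7, Hmgn3 and Skap2 (r from 0.914 to 0.877). Ifitm6 was most like Cd300c2, AI839979, Klf4, Fn1 and Pid1 (r from 0.948 to 0.938). The members were less like each other, at r = 0.596 for Ifitm1 with Ifitm2, 0.707 for Ifitm2 with Ifitm3 and 0.145 for Ifitm1 with Ifitm3.

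Ifitm1 lay lower in every knockout sample than in any wild type sample in all 9 classes. The shares of all genes that did so were 9.26% in basophil/mast cells, 6.11% in HSC/MPP, 6.21% in megakaryocytes, 5.47% in early erythroid cells, 5.55% in lymphoid progenitors, 5.33% in granulocyte progenitors, 12.3% in monocytes, 10% in dendritic cells and 4.48% in T/NK cells. The difference in Ifitm1 between genotypes was widest in basophil/mast cells. There it measured 243, 195 and 243 CPM in the knockouts, against 3894, 3302 and 3465 CPM in wild type, a 15.7-fold difference of the means (log2 fold change -4.09). In HSC/MPP it measured 464, 484 and 502 CPM in the knockouts, against 1030, 1047 and 1123 CPM in wild type, 2.21-fold (-1.20), and the log2 fold change in megakaryocytes was also -1.20. The knockout samples were below all wild type samples in both classes, but by far less than in basophils. Early erythroid cells held 109, 142 and 151 CPM in the knockouts, against 794, 555 and 969 CPM in wild type (-2.59). Lymphoid progenitors held 120, 56.6 and 58.7 CPM in the knockouts, against 238, 288 and 279 CPM in wild type (-1.78). The genotypes did not overlap in either class, and KO1 was the highest of the knockout lymphoid sums.

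In the other 4 classes Ifitm1 was low in each genotype, with means of 7.77 CPM (T/NK cells) to 11.6 CPM (granulocyte progenitors) in the knockout and 38.9 CPM (T/NK cells) to 83.2 CPM (granulocyte progenitors) in wild type. Log2 fold changes there ran from -2.31 (dendritic cells) to -2.88 (granulocyte progenitors). RNA set free from other cells gives droplets a few UMIs of abundant genes, and Mcpt8, a granule protease specific to basophils, served as a gauge. In T/NK cells Mcpt8 measured 87.6 to 122 CPM in the knockouts and 209 to 285 CPM in wild type, against 16314 to 17840 CPM and 32047 to 37430 CPM in the basophils of the same genotypes. At the basophils' own ratio of Ifitm1 to Mcpt8, that amount would carry 1.24 to 1.57 CPM of Ifitm1 in knockout T/NK cells and 18.4 to 31.5 CPM in wild type T/NK cells. The measured values were 4.46 to 9.96 CPM in the knockouts and 26.9 to 52.6 CPM in wild type. In HSC/MPP the same amount came to 1.38 to 1.52 CPM in the knockouts and 15.2 to 27.1 CPM in wild type, a small share of the Ifitm1 measured. In wild type monocytes it came to 16.5 to 28.4 CPM, against 65.6 to 85.9 CPM of Ifitm1 measured. In wild type granulocyte progenitors it came to 22.4 to 43.8 CPM, against 68.1 to 101 CPM measured. In wild type dendritic cells it came to 15.9 to 29.4 CPM, against 22.7 to 54.9 CPM measured. This gauge counts only Ifitm1 set free from basophils, which held less of all Ifitm1 in the knockouts than in wild type. In KO1 basophil/mast cells held 1171 and HSC/MPP 1573 of 3935 Ifitm1 UMIs. In WT1 basophil/mast cells held 9737 of 13371. The gauge thus leaves out more of the possible sources in the knockouts. The part of free RNA in the 4 low classes was not tested further, and their Ifitm1 differences are not read as expression differences.

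**Figure D2:**
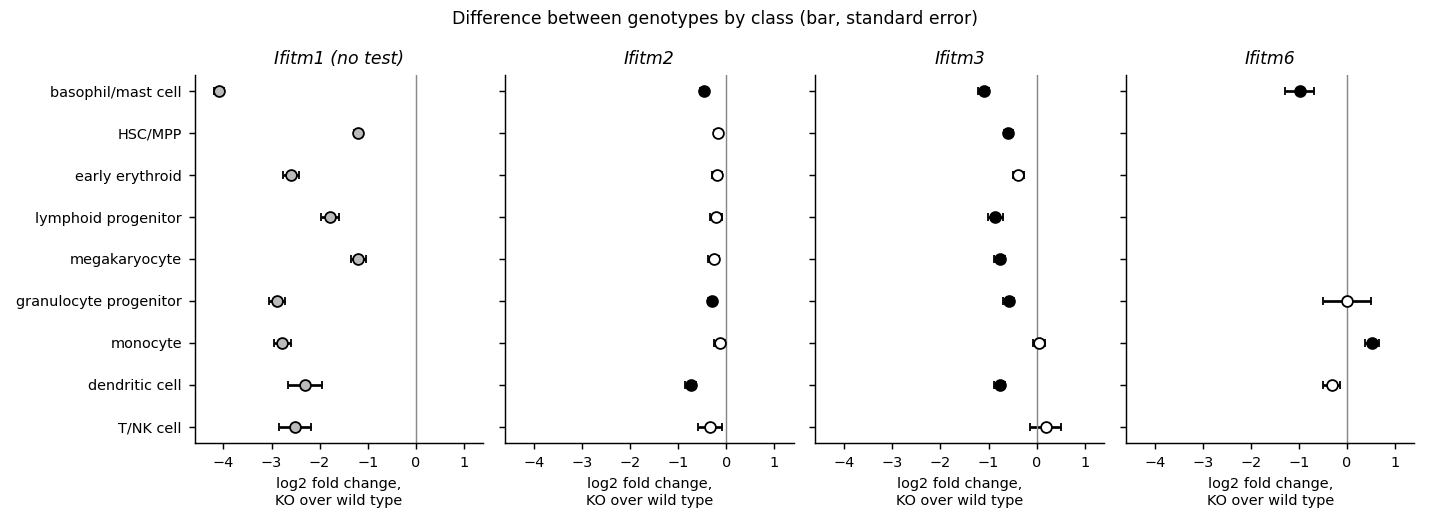
Log2 fold change (knockout over wild type, edgeR, horizontal axis) of the 4 genes in 9 classes; bars are standard errors, black points passed an adjusted p of 0.05, white points did not, grey points (Ifitm1) were not tested. Ifitm1 runs from -1.20 in HSC/MPP and megakaryocytes to -4.09 in basophil/mast cells, Ifitm3 lies between -1.10 and 0.18, and Ifitm2 between -0.74 and -0.14.

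Ifitm3 passed the test as lower in the knockout in 6 of 9 classes, which were basophil/mast cells, HSC/MPP, lymphoid progenitors, megakaryocytes, dendritic cells and granulocyte progenitors. The shares of all genes called lower in those classes were 7.99%, 1.51%, 1.15%, 0.684%, 3.53% and 1.54%, in that order. It remained called in the first 4 of these when each sample was given the same mix of clusters within the class, an alternative added after the data were seen, but not in dendritic cells or granulocyte progenitors.

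In basophil/mast cells Ifitm3 measured 98.1, 68.4 and 98.1 CPM in the knockouts, against 153, 199 and 174 CPM in wild type. The groups did not overlap (log2 fold change -1.10 ± 0.12 SE, edgeR adjusted p = 9.28e-06). Clusters 2 and 5 held most of the knockout basophils and clusters 0 and 13 most of the wild type basophils; with the same cluster shares, some cells weighted up to 44.0-fold, the change was -0.88 (adjusted p = 0.00867). In HSC/MPP Ifitm3 measured 505, 478 and 578 CPM in the knockouts, against 647, 811 and 798 CPM in wild type. All knockouts were below all wild type samples (-0.59 ± 0.10 SE, adjusted p = 8.01e-04; -0.57 with the same cluster shares, adjusted p = 0.00141).

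In megakaryocytes, the platelet precursors, Ifitm3 measured 562, 463 and 583 CPM in the knockouts, against 898, 907 and 879 CPM in wild type. Again the groups were apart (-0.77 ± 0.11 SE, edgeR adjusted p = 1.21e-04). In lymphoid progenitors it measured 174, 103 and 164 CPM in the knockouts, against 222, 320 and 246 CPM in wild type (-0.86 ± 0.16 SE, adjusted p = 0.00530), also without overlap. This class joins clusters 16 and 17, and the leading genes of cluster 16, Ly6d and Cox6a2, also lead the Siglech cluster of the dendritic cells. In cluster 17, led by Dntt, the enzyme that adds bases at antigen receptor joints, Ifitm3 was 219, 128 and 210 CPM in the knockouts, against 352, 438 and 343 CPM in wild type. In cluster 16 it was 83.2, 76.8 and 95.8 CPM in the knockouts, against 43.1, 147 and 127 CPM in wild type, and the genotypes overlapped. The titles of the knockout samples and of WT1 share a code prefix, XA, whose meaning the sources used here do not state. Both with this prefix as a covariate and in the XA samples alone, the genotype change rests on WT1 as the only wild type sample. With the covariate, WT2 and WT3 inform only the prefix term and the spread, so these settings are not separate checks. In both, the Ifitm3 call was kept in basophil/mast cells, megakaryocytes and dendritic cells. It was lost in HSC/MPP, lymphoid progenitors and granulocyte progenitors. The HSC/MPP change was -0.43 in each and the lymphoid change -0.67 in each. With the Ifitm genes used in clustering the lymphoid call was lost as well (-0.55, adjusted p = 0.160).

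In dendritic cells Ifitm3 measured 446, 355 and 471 CPM in the knockouts, against 628, 698 and 787 CPM in wild type. The groups did not overlap (-0.77 ± 0.11 SE, edgeR adjusted p = 1.55e-04), but the class joins clusters that differ widely in this gene. Cluster 4, led by Siglech, a receptor of plasmacytoid dendritic cells, held 53.1 CPM over 584 knockout cells and 41.8 CPM over 516 wild type cells. Cluster 18, led by MHC class II genes, held 1710 CPM over 182 knockout cells and 2015 CPM over 319 wild type cells. The samples of the genotypes overlapped in clusters 4 and 18. Cluster 26, led by Cd209d and Upb1, held 252, 172 and 233 CPM in the knockouts, against 376, 336 and 375 CPM in wild type, without overlap. With the same cluster shares the dendritic change was -0.13 (adjusted p = 0.576), and the call was also lost at clustering resolutions 0.5 and 2.0 and with the Ifitm genes used in clustering (-0.16, -0.29 and -0.25). In granulocyte progenitors Ifitm3 measured 74.3, 70.7 and 95.7 CPM in the knockouts, against 130, 122 and 100 CPM in wild type (-0.58 ± 0.12 SE, adjusted p = 0.0127). KO3 and WT3 came close, and the call was lost with the same cluster shares (-0.48, adjusted p = 0.0565) and without KO1 or WT2 (-0.51 to -0.73 over the samples left out).

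Ifitm3 did not pass the test in early erythroid cells (-0.38 ± 0.12 SE, edgeR adjusted p = 0.128), T/NK cells (0.18 ± 0.32 SE, adjusted p = 0.879) or monocytes (0.05 ± 0.12 SE, adjusted p = 0.879), where 1.14%, 1.41% and 2.65% of genes were called lower, in that order. In monocytes, where it was highest among the wild type classes, it measured 1386, 1044 and 997 CPM in the knockouts, against 963, 1152 and 1232 CPM in wild type. The groups overlapped. Cluster 11, led by Ear2 and Fcgr4, held 4507 CPM over 114 knockout cells and 5501 CPM over 634 wild type cells. Its samples overlapped, as did those of clusters 10 and 12. Cluster 29, led by Lyz2 and Tgfbi, held 3254, 2640 and 3153 CPM in the knockouts, against 4177, 5067 and 4654 CPM in wild type, without overlap. That cluster had 11 to 22 cells per wild type sample. With the same cluster shares the monocyte change was -0.25 (edgeR adjusted p = 0.291). Whether the Ifitm2 and Ifitm3 changes differ between classes was tested with limma on each sample's class values less the mean of its other classes. Of 18 such tests, 0 passed an adjusted p of 0.05 and 3 had an unadjusted p under 0.05. Of all 5076 genes, the share called in this way was 1.95% in basophil/mast cells, 0.0591% in HSC/MPP, 0.0197% in T/NK cells, 0.0197% in lymphoid progenitors and 0% in the other 5 classes. Ifitm3 came nearest in basophil/mast cells (-0.62 ± 0.12 SE relative to the other classes, limma adjusted p = 0.0533) and was 0.68 ± 0.13 in monocytes (adjusted p = 0.143).

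Ifitm2 was high in all classes but T/NK cells in wild type, from 310 CPM in dendritic cells to 1177 CPM in basophil/mast cells, with T/NK cells at 36.0 CPM. Within the wild type dendritic cells Ifitm2 was 58.9 CPM in cluster 4, 266 CPM in cluster 26 and 778 CPM in cluster 18. It passed the test as lower in 3 of 9 classes. In basophil/mast cells it measured 974, 872 and 929 CPM in the knockouts, against 1150, 1181 and 1200 CPM in wild type, without overlap (-0.47 ± 0.08 SE, edgeR adjusted p = 4.57e-04). In dendritic cells, where 3.53% of genes were called lower, it measured 199, 190 and 183 CPM in the knockouts, against 266, 321 and 344 CPM in wild type (-0.74 ± 0.11 SE, adjusted p = 1.90e-04). In granulocyte progenitors it measured 645, 645 and 664 CPM in the knockouts, against 755, 779 and 766 CPM in wild type (-0.31 ± 0.08 SE, adjusted p = 0.0497); that call was kept under 7 of 18 alternatives and lost without KO1, KO2, KO3, WT2 or WT3 in turn. The genotypes were apart in each of these classes, yet the changes were small beside those of Ifitm1. With the same cluster shares these 3 calls were lost, at -0.31 (adjusted p = 0.0708), -0.23 (adjusted p = 0.284) and -0.28 (adjusted p = 0.0836). In HSC/MPP, where Ifitm1 and Ifitm3 lay apart, Ifitm2 measured 824, 842 and 871 CPM in the knockouts, against 863, 904 and 980 CPM in wild type, and the ranges overlapped (-0.18 ± 0.09 SE, edgeR adjusted p = 0.442). In megakaryocytes Ifitm2 was not called but lay lower without overlap, as did 6.21% of all genes there. It measured 887, 927 and 962 CPM in the knockouts, against 1150, 1026 and 1071 CPM in wild type.

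Ifitm6 was high in 2 of the 9 classes, with 158 to 189 CPM in wild type monocytes, 70.0 to 102 CPM in wild type dendritic cells and means of at most 5.67 CPM in the other wild type classes. Within the wild type dendritic cells Ifitm6 was uneven, at 2.56 CPM over the 516 cells of Siglech-led cluster 4, 26.4 CPM in cluster 26 and 260 CPM in cluster 18. It passed the filter on low counts in 4 classes. In monocytes it measured 291, 256 and 195 CPM in the knockouts, against 189, 158 and 180 CPM in wild type. KO3 and WT1 nearly met, and Ifitm6 was called higher in the knockout (0.52 ± 0.14 SE, edgeR adjusted p = 0.0386; 2.58% of genes were called higher there). It kept its call under 7 of 18 alternatives; the call was lost with the same cluster shares (0.12, adjusted p = 0.759) and without KO1, KO2, WT2 or WT3 in turn (0.41 to 0.68 over the samples left out). Cluster 10 of the monocytes, led by S100a4 and Klf4, held 178, 146 and 159 CPM in the knockouts, against 97.8, 67.9 and 86.7 CPM in wild type, whereas cluster 11 held 1053, 953 and 902 CPM in the knockouts, against 1075, 891 and 994 CPM in wild type. In basophil/mast cells Ifitm6 rested on 8 to 18 UMIs in the knockout samples and 9 to 39 UMIs in wild type (-0.98 ± 0.30 SE, adjusted p = 0.0434), and it kept its call under 4 of 18 alternatives.

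Within basophil/mast cells the Ifitm1 difference was present in each cluster with enough cells. Cluster 0, led by Ccl6, C5ar1 and Ccl4, held 369, 66.2 and 192 CPM of Ifitm1 in 25, 11 and 21 knockout cells, against 7657, 6489 and 7101 CPM in 364, 737 and 1072 wild type cells. Cluster 2, led by Sytl3, Ccl3 and Lilrb4a, held 231 CPM over 1539 knockout cells and 5056 CPM over 47 wild type cells. Cluster 5, led by Rnase12 and Lmo4, held 282, 301 and 262 CPM in the knockouts, against 1908, 1923 and 1853 CPM in wild type. Clusters 13 and 23, led by the proteases Prss34 and Mcpt8, held 27.1 and 123 CPM over the knockout cells and 1105 and 937 CPM over the wild type cells. In wild type the level thus differed widely between clusters 0 and 23, while no knockout sample exceeded 369 CPM in these 5 clusters.

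**Figure D3:**
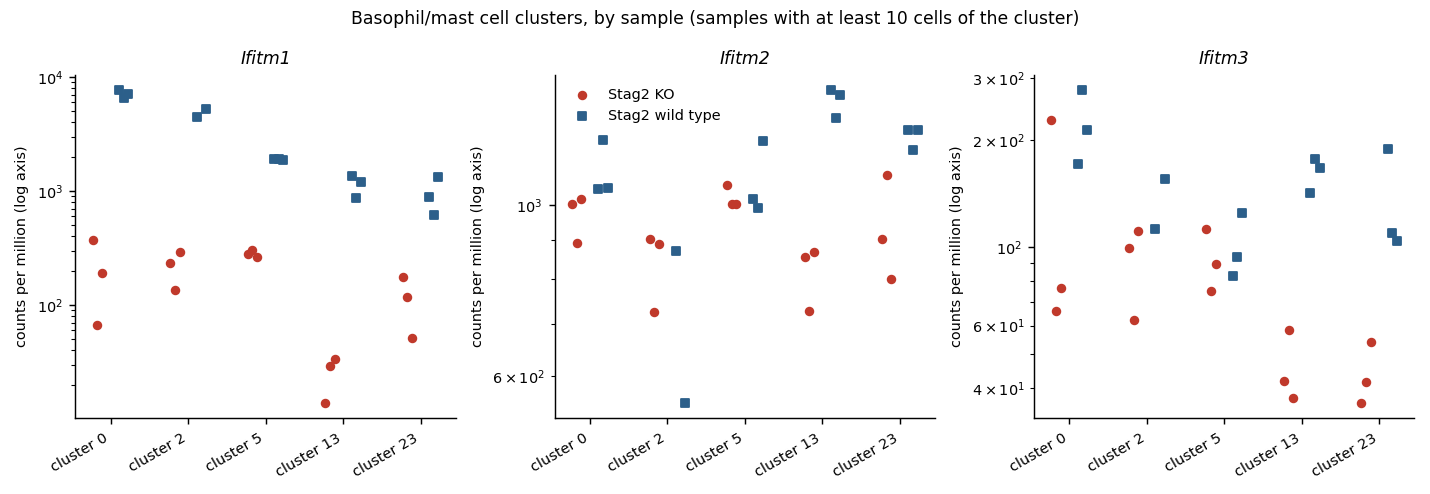
Level of Ifitm1, Ifitm2 and Ifitm3 (CPM, log axes) in 5 clusters of basophil/mast cells; each point is a sample with at least 10 cells of the cluster, knockout in red circles left of wild type in blue squares. Ifitm1 was apart in all 5 clusters, while Ifitm3 was clearly apart in clusters 13 and 23 and met or overlapped in clusters 0, 2 and 5.

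Ifitm3 followed a different pattern over the same clusters. In cluster 13 it held 41.8, 58.2 and 37.4 CPM in the knockouts, against 142, 177 and 167 CPM in wild type. In cluster 5 it held 112, 75.3 and 89.8 CPM in the knockouts, against 83.0, 94.0 and 125 CPM in wild type, and the genotypes overlapped. A small cluster outside the named classes, number 33, led by Gzmb, Scin, Hes1 and Cma1, the last a mast cell chymase, held 2533, 1250 and 2535 CPM of Ifitm1 in the knockouts, against 3914 and 4588 CPM in WT2 and WT3. With 30 knockout and 40 wild type cells, its pooled levels were 2136 CPM in knockout and 4423 CPM in wild type, closer than in any basophil cluster.

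Another small basophil cluster, number 36, was led by Ifit1, Ifit3, Isg15, Usp18 and Rsad2, classical interferon-induced genes, in 15 knockout and 28 wild type cells. It held 2 Ifitm1 UMIs over the knockout cells (39.9 CPM, 95% exact interval 4.83 to 144) and 467 over the wild type cells (6230 CPM, 5677 to 6821). Ifitm1 in the remaining basophils was 233 CPM in knockout and 3467 CPM in wild type. Ifitm3 in cluster 36 was 139, 1028 and 1457 CPM in KO1, KO2 and KO3 (7, 2 and 6 cells), against 97.9, 65.4 and 92.5 CPM in their other basophils. The pooled knockout level of 817 CPM (586 to 1108) was 1326 CPM without KO1 and 396 CPM without KO3, and KO1 lay close to its other basophils. In wild type Ifitm3 in cluster 36 was 1206, 1625 and 2406 CPM, against 145, 190 and 163 CPM in the other basophils. The leading genes themselves were uneven: Ifit1 was 120 CPM in the knockout and 547 CPM in wild type, and Ifit3 was 79.7 CPM in the knockout and 454 CPM in wild type. Isg15 was 757 CPM in the knockout and 854 CPM in wild type, and 386 CPM in the knockout without the 2 cells of KO2. Without these cells Ifit1 was 24.1 CPM and Ifit3 was at 0 in the knockout. These intervals cover counting error only, the cells of a genotype are pooled over 3 mice, and the cluster was defined by such genes, so no test is given.

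Cell by cell, fewer knockout cells held an Ifitm1 UMI, and with all classes pooled such cells held fewer UMIs on average. Each cell was thinned to 2000 UMIs, which left out 558 knockout and 2502 wild type cells of lower depth, 1806 of the latter from WT3. Of the 1765 basophil/mast cells of WT3, 894 were deep enough, so its shares describe its deeper cells. Then 15.6%, 13.7% and 16.5% of basophil/mast cells held an Ifitm1 UMI in the knockouts, against 82.1%, 78.6% and 74.7% in wild type; without thinning the means were 22.1% and 89.4%. In HSC/MPP the shares were 48.5%, 48.7% and 53.5% in the knockouts, against 80.9%, 79.0% and 78.2% in wild type. In T/NK cells, which with dendritic cells were low in Ifitm1, the mean share at this depth was 1.39% in the knockout and 7.42% in wild type. Over all cells at this depth, cells with a UMI held 2.20 to 2.42 Ifitm1 UMIs on average in the knockouts and 4.75 to 7.54 in wild type. These averages pool the classes, and the share with a UMI was lower by more in basophil/mast cells than in HSC/MPP. They therefore do not separate class makeup from UMIs per cell within a class.

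**Figure D4:**
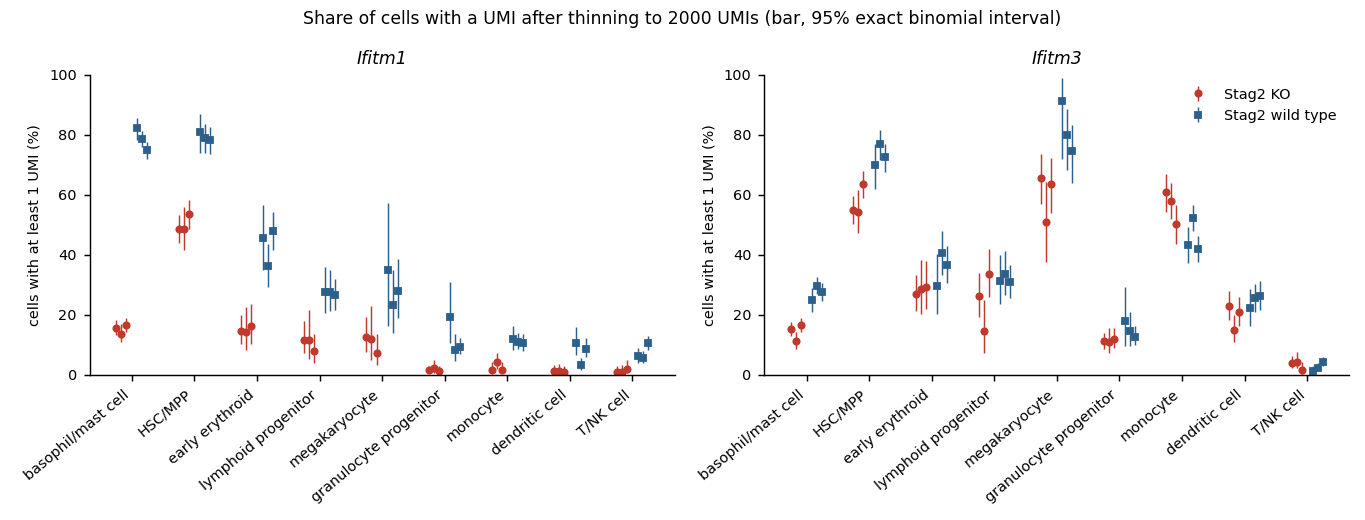
Share of cells with at least 1 UMI of Ifitm1 or Ifitm3 after every cell was thinned to 2000 UMIs, by class; each point is 1 sample with its 95% exact binomial interval (counting error only), knockout in red circles left of wild type in blue squares. Ifitm1 shares were apart in all classes, from 15.3% and 78.5% on average in knockout and wild type basophil/mast cells to 1.15% and 7.42% in dendritic cells. In dendritic cells and the other low classes the part of free RNA was not tested, and the difference is not read as one of expression.

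Ifitm3 shares in basophil/mast cells were 15.2%, 11.2% and 16.6% in the knockouts, against 24.8%, 29.6% and 27.5% in wild type. In megakaryocytes they were 65.4%, 50.8% and 63.4% in the knockouts, against 91.3%, 79.7% and 74.4% in wild type. Both comparisons were without overlap and reached p = 0.1 in a 2-sided exact permutation test, the smallest that 3 against 3 samples allow. The T/NK share of Ifitm3 averaged 3.24% in the knockout and 2.68% in wild type. The Ifitm2 share in HSC/MPP averaged 80.8% ± 1.35 in the knockout and 83.0% ± 2.71 in wild type (SD, n = 3 each), and the ranges overlapped (exact permutation p = 0.3).

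Genes further along chromosome 7 were called about as often as all genes. Of 30 genes tested over all cells from a list of the surroundings (Ifitm7 of chromosome 16 included), 3 passed the test, against 10.8% of all genes. Polr2l, a subunit shared by the RNA polymerases 505 kb from the start of Ifitm1, fell (log2 fold change -0.70 ± 0.16 SE, edgeR adjusted p = 0.0194), while Hras (0.30 ± 0.08 SE, adjusted p = 0.0415) and Pnpla2 rose. The list's median log2 fold change was -0.0010, against 0.01 over all genes. With the title prefix as a covariate 0 of 32 were called (edgeR, 5 at an unadjusted p under 0.05), and 0 to 1 were called without each sample in turn, with 0 without KO1, KO3 or WT3. Calls over all genes were then also fewer than 10.8%, at 5.51% with the prefix and 5.94%, 6.47% and 8.68% without KO1, KO3 and WT3. Pgghg, an enzyme of collagen sugar breakdown that lies beyond Ifitm5 on the Ifitm2 side, was 0.06 ± 0.20 SE in basophil/mast cells (edgeR adjusted p = 0.902) and 0.08 ± 0.22 SE in HSC/MPP (adjusted p = 0.928). B4galnt4, the next tested gene beyond Ifitm6, was -0.05 ± 0.35 SE in basophils (adjusted p = 0.952). Ifitm5, known from bone-forming cells, stayed at or under 0.575 CPM in every sample over all cells.

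**Figure D5:**
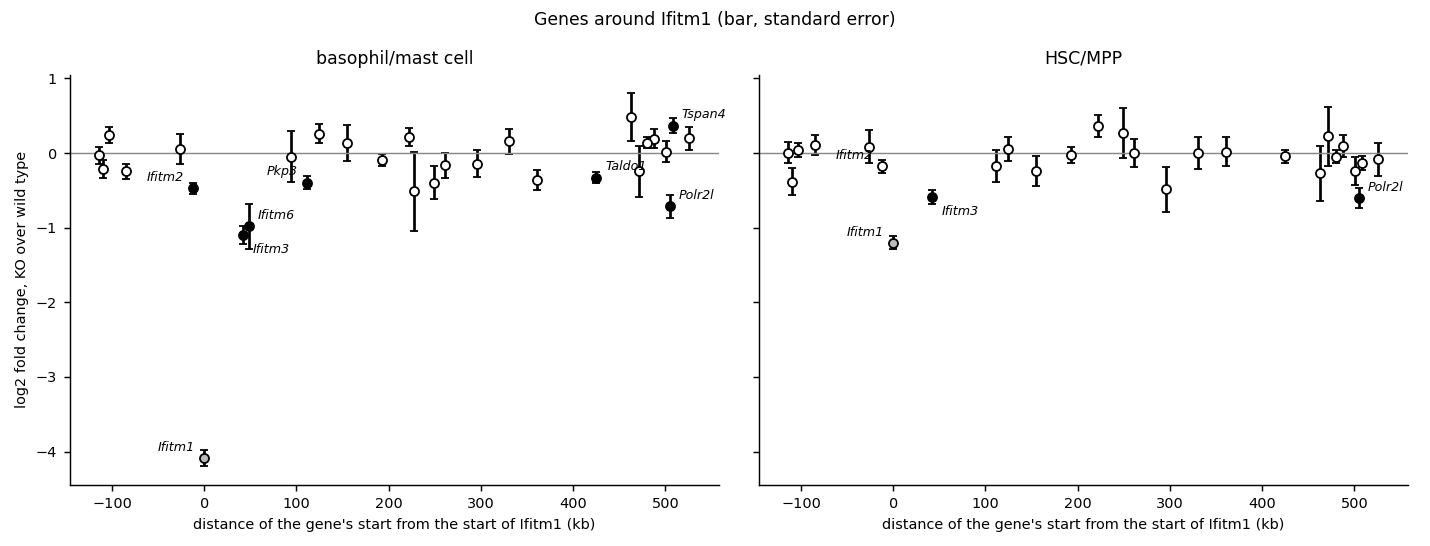
Log2 fold change (knockout over wild type, edgeR) of genes tested in basophil/mast cells and HSC/MPP against the distance of the gene's start from that of Ifitm1 (kb); bars are standard errors, black points passed an adjusted p of 0.05, white points did not, the grey point (Ifitm1) was not tested. Beside Ifitm1 at -4.09 and -1.20, Ifitm3 lay at -1.10 and -0.59, and most genes further out lay near 0.

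In basophil/mast cells 4 of 27 tested genes of the surroundings passed, against 12.3% of all genes in either direction. Without WT3 2 passed, and with the same cluster shares 0 of 26 did (edgeR, 2 at an unadjusted p under 0.05; 3 of 27 with DESeq2 on the cells as they are), while the genes called in this class went down to 189, 1.99% of those tested. Pkp3, a desmosome protein, fell to 72.9, 68.8 and 74.8 CPM in the knockouts, against 92.0, 84.6 and 86.7 CPM in wild type (-0.40 ± 0.09 SE, edgeR adjusted p = 0.00812). Taldo1 and Polr2l also fell, and Tspan4 rose. Weighted to the same cluster shares, Pkp3 was 0.14 (adjusted p = 0.752) and Polr2l -0.57 (adjusted p = 0.352). In monocytes Pkp3 moved the other way and rose to 36.0, 40.04 and 46.2 CPM in the knockouts, against 26.9, 23.1 and 26.2 CPM in wild type (0.72 ± 0.15 SE, adjusted p = 0.00956; 0.52 with the same cluster shares, adjusted p = 0.118). Polr2l fell in 7 of the 9 classes, at -0.60 in HSC/MPP to -0.95 in granulocyte progenitors, and with the same cluster shares in the same classes but basophil/mast cells.

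Other interferon-induced genes were followed as a list. Of 49 tested genes of an interferon response list, 9 passed over all cells, each lower in the knockout, against 7.21% of all genes called lower, and the list's median log2 fold change was -0.20, against 0.01 over all genes. Ly6e, an interferon-induced surface protein, fell to 635, 758 and 708 CPM in the knockouts, against 1122, 1209 and 1161 CPM in wild type (-0.77 ± 0.09 SE, edgeR adjusted p = 6.11e-04). Usp18, which removes the ubiquitin-like ISG15, fell by 1.02 on the log2 scale (± 0.17 SE, adjusted p = 0.00470), and Sp100, Samhd1, Slfn2 and Phf11b also fell. With the same class shares 3 were called lower and 1 higher: Ly6e (-0.56), Usp18 (-0.73) and Phf11b (-0.46) were still called, and Ifi204 was higher (0.96, adjusted p = 0.0193). Without KO1, KO3 or WT2 in turn 4 were called lower. Calls over all genes, in either direction, were 7.59% with the same class shares and 5.94%, 6.47% and 6.34% without KO1, KO3 and WT2. They were 10.8% with all 6 samples as they are. In basophil/mast cells 8 of 35 passed, each lower, against 7.99% of all genes called lower. Weighted to the same cluster shares, 1 of 34 passed, Ly6e (-1.004, adjusted p = 1.54e-05), where 189 genes were called in all; 5 passed without KO1, KO3, WT1 or WT2 in turn. Ly6e measured 1051 ± 32.4 CPM there in the knockout and 2017 ± 152 CPM in wild type (SD, n = 3 each; -1.06, adjusted p = 9.44e-08). Samhd1, a nucleotide hydrolase that limits retroviruses, changed by -0.87 (adjusted p = 3.09e-05; -0.65 with the same cluster shares, adjusted p = 0.136). In HSC/MPP 4 of 45 passed, each lower, against 1.51% of all genes called lower, among them Rtp4 (-0.72, adjusted p = 0.00565) and Oas1a (-1.05, adjusted p = 0.0282). There 3 of 44 passed with the same cluster shares, and 0 of 45 with the title prefix as a covariate (edgeR; at an unadjusted p under 0.05, 2 lower and 2 higher; 2 called with DESeq2 and no covariate). Without KO1, KO3 or WT2 in turn 2, 2 and 1 passed, without WT3 0 did (11 at an unadjusted p under 0.05), and without WT1 7 did. Calls over all genes in HSC/MPP, in either direction, also varied between these settings. They were 1.94% with the same cluster shares, 0.53% with the prefix and 1.13% without WT3, against 1.94% with all 6 samples as they are.

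In monocytes 5 of 37 interferon response genes passed, each higher in the knockout, against 2.58% of all genes called higher. With the same cluster shares 0 of 36 passed (edgeR, 5 at an unadjusted p under 0.05, and 3 of 37 with DESeq2 on the cells as they are), 3 passed without WT1, and 1 passed without KO1 or WT3. Calls over all genes, in either direction, were 2.39% with the same cluster shares, 5.46% without WT1, 3.05% without KO1 and 2.14% without WT3. They were 5.23% with all 6 samples as they are. Slfn5 measured 24.6 ± 6.54 CPM in the knockout and 7.52 ± 0.79 CPM in wild type (SD, n = 3 each; 1.68, edgeR adjusted p = 5.27e-04). Irf7, the master regulator of type I interferon genes, which lies 295 kb from the start of Ifitm1, measured 41.4, 22.8 and 28.7 CPM in the knockouts, against 10.4, 17.3 and 19.1 CPM in wild type (0.93 ± 0.23 SE, adjusted p = 0.0274). Ifi204, Ifi27l2a and Slfn2 rose as well. The monocyte clusters differed in share between genotypes. Of 274, 284 and 256 knockout monocytes (KO1 to KO3), 49, 72 and 27 lay in cluster 29 and 45, 36 and 33 in cluster 11. Of 311, 636 and 810 wild type monocytes (WT1 to WT3), 11, 13 and 22 lay in cluster 29 and 88, 247 and 299 in cluster 11. Of 20 tested genes for interferon receptors and signalling, 1 passed over all cells, against 7.21% of all genes called lower, which is no more than the share of all genes. It was Socs1, an inhibitor of cytokine signals, which was lower. With the same class shares Socs1 was -0.03 (edgeR adjusted p = 0.900). In monocytes 2 of 18 genes of this list passed, each higher, against 2.58% of all genes called higher. Ifngr1, the ligand-binding chain of the type II interferon receptor, fell in HSC/MPP (-0.68) and rose in T/NK cells (0.45). With the same cluster shares these were -0.68 (edgeR adjusted p = 0.00249) and 0.09 (adjusted p = 0.881). In each of these classes 1 gene of the list was called, of 20 and 19 tested. Of all genes, 1.51% were called lower in HSC/MPP and 2.70% were called in either direction in T/NK cells.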

How the data were processed

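Single-cell RNA libraries of Lin- cells from 6 mice, 3 Stag2 KO and 3 Stag2 wt, were made with the 10x Chromium 3' version 2 chemistry, per the labels. What the authors deposited is a table of UMI counts, whole numbers with no normalization as the values show; aligner and genome build are not stated in the sources used here. A gene absent from a sample's table was set to 0 there. Replicate numbers follow accession order and pair nothing. The members, lists and tests were chosen with earlier results of these data known.

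A kept cell had 500 or more genes and no more than 20% mitochondrial UMIs; likely doublets, scored against simulated ones, were removed at 0.8% per 1000 cells, and cells were clustered together (2000 variable genes without Ifitm genes, 30 components, 15 neighbours, Leiden resolution 1.0, 39 clusters). Clusters were named from fixed markers (at least 3 raised 2-fold at 20 CPM), and a class needed 20 cells in every sample. The deposited counts were summed per sample and class (238336 to 8845063 UMIs). edgeR's quasi-likelihood test was used with TMM factors, its low-count filter and Benjamini-Hochberg adjustment over all genes tested in a class at 0.05; limma with a prior count of 2 tested differences between classes over 5076 genes. p-values measure the spread between these 6 samples. Shares used the exact permutation test over 20 assignments and 95% exact binomial intervals. Named list genes were the 6 with the smallest p past 0.05 per list and comparison, plus the genes from Pgghg to Sigirr and, for likeness, 5 genes per member among those averaging 10 CPM or more over the wild type class sums, predicted genes left out; basophil clusters and Mcpt8 were chosen after their values were seen. Simulated counts served to test the edgeR step. The alternatives comprised RLE factors, DESeq2, dropping the low-count filter, the title prefix as a covariate, the XA samples alone, each sample left out, other cell filters, doublets kept, other resolutions, the Ifitm genes used in clustering, equal class shares and, added after the data were seen, equal cluster shares within classes. Under the prefix covariate and in the XA samples alone, the genotype change is that of the knockouts against WT1 alone. Software was Python 3.11.15 (scikit-learn 1.9.0, leidenalg 0.10.2) and R 4.3.3 (edgeR 4.0.16, limma 3.58.1, DESeq2 1.42.0).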

Additional observations from a re-analysis of the deposited data

How the results depend on the processing

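Ifitm3 over all kept cells kept its direction and its call under all 15 alternatives run there (log2 fold change -0.70 to -0.49, highest edgeR adjusted p 0.0305), and within classes its calls in basophil/mast cells and megakaryocytes were kept under all 18. Ifitm1 lay lower in the knockout under every alternative; over all cells it was -2.61 in cells with at least 2000 UMIs and -2.97 to -2.76 without each sample in turn. With equal class shares Ifitm2 over all cells was called (-0.25, adjusted p = 0.0301) and Ifitm6 turned sign (0.18, adjusted p = 0.495); without each sample in turn Ifitm6 ran from -0.77 to -0.051, the first without KO2 (adjusted p = 0.00395). The causes were not tested.

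The number of genes past 0.05 over all cells was 732 with the title prefix as a covariate, 494 in the XA samples alone and 759 to 1452 without each sample in turn; fewer samples or residual degrees of freedom enter those fits. It was lowest, among the samples left out, without KO1 (759), WT2 (810) and KO3 (832). The number of classes with Ifitm2 called lower was 1 in the XA samples alone and 0 with equal cluster shares (edgeR; 5 of 9 at an unadjusted p under 0.05; 3 classes with DESeq2 and the usual mix). The number with Ifitm3 called lower fell with the prefix as a covariate and in the XA samples alone. Both settings rest on WT1 as the only wild type sample behind the genotype change. Ifitm6 was called lower in 0 classes with DESeq2, the prefix as a covariate, the XA samples alone, no cell filter, doublets kept, cells with at least 2000 UMIs, resolutions 0.5 and 2.0 or equal cluster shares, and in 0 to 1 without each sample in turn. It was called higher in 0 classes with the prefix as a covariate, the XA samples alone, doublets kept, resolutions 0.5 and 2.0, the Ifitm genes used in clustering or equal cluster shares, and in 0 to 1 without each sample in turn. At an unadjusted p under 0.05 these 0 counts were 0 to 2 classes of 4.

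Directions that turned were all of uncalled values. Ifitm3 in T/NK cells was -0.24 with doublets kept and -0.024 to 0.51 without each sample in turn. Ifitm3 in monocytes was -0.0054 at resolution 0.5, -0.20 at resolution 2.0, -0.12 with the Ifitm genes used in clustering, -0.25 with equal cluster shares and -0.10 to 0.16 without each sample in turn. Ifitm2 in monocytes was 0.10 with the prefix as a covariate, 0.098 in the XA samples alone and 0.051 in cells with at least 2000 UMIs. Ifitm6 in dendritic cells was 0.40 and 0.27 at resolutions 0.5 and 2.0, 0.24 with the Ifitm genes used in clustering and 0.36 with equal cluster shares. Ifitm6 in granulocyte progenitors was 0.012 without the low-count filter, 0.11 with equal cluster shares and -0.45 to 0.35 without each sample in turn. The difference in the share of cells with a UMI was -27.2 percentage points for Ifitm1 without thinning, -0.38 for Ifitm2 at 1000 UMIs per cell and 2.20 for Ifitm3 without thinning, where knockout cells are deeper. Of the other class values under alternatives, 473 kept direction and side of the threshold, 54 lost their call and 8 untested ones moved by more than the spread between samples.

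No paired analysis was possible because the labels give no replicate numbers that the genotypes share. Depth limits Ifitm6 outside monocytes and dendritic cells and Ifitm1 in knockout T/NK and dendritic cells, which rest on 6 to 14 UMIs per sample.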

Other observations

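Clusters outside the 9 classes compared are described where at least 2 samples of each genotype held 10 or more cells. Ifitm1 lay lower in all such knockout samples in clusters 3, 14 and 33, late erythroid cluster 28 and eosinophils. Cluster 33, the late erythroid cells and the eosinophils had only 2 such samples in a genotype. The share of all genes lying so was not computed, and free RNA was not gauged in these clusters. Ifitm1 overlapped in unnamed cluster 19, whose leading genes include Gata3 and Icos, at 10.8, 162 and 4.58 CPM in the knockouts, against 65.0, 10.2 and 56.2 CPM in wild type. In B cell cluster 27, with 10 or more cells in only 1 knockout sample, KO1 was at 36.3 CPM over 13 cells, within the 33.9 to 43.7 CPM of wild type. The other B cell cluster, number 37, had 1 knockout cell and held 67.6 and 28.3 CPM in WT2 and WT3. Unnamed cluster 14 held 104, 84.0 and 168 CPM in the knockouts, against 430, 424 and 513 CPM in wild type, and late erythroid cells 13.1 to 23.8 CPM in KO3 and KO1, against 63.8 to 264 CPM in wild type. Eosinophils, a granulocyte lineage close to basophils, held 28.7 and 12.6 CPM in KO1 and KO3 (40 and 22 cells), against 405 and 439 CPM in WT2 and WT3 (10 and 22 cells); KO2 and WT1 had fewer than 10. Cluster 3, left unnamed and whose leading genes include Serpinf1, F13a1, Cd34 and Mpo, held 62.9, 46.7 and 61.9 CPM in the knockouts, against 248, 302 and 234 CPM in wild type, and Ifitm3 there was 207, 140 and 182 CPM in the knockouts, against 269, 335 and 301 CPM in wild type. Ifitm10, a relative 1359 kb from the start of Ifitm1, measured 4.84, 5.79 and 2.52 CPM over all knockout cells, against 12.2, 9.29 and 9.55 CPM in wild type (log2 fold change -1.28, edgeR adjusted p = 0.00919). Within T/NK cells, which were 6.73% to 13.3% of knockout cells and 15.8% to 19.9% of wild type cells, its change was -0.31 (adjusted p = 0.318).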
